A study of Homo sapiens with 3 samples.

Results

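The kallikrein-related peptidases KLK5 to KLK14 are 10 neighbouring genes of chromosome 19 that encode secreted serine proteases. They were chosen by name, by their place in the kallikrein cluster, and all 10 were found by symbol among the 19220 genes of the count table. The other 5 genes of the cluster, KLK1 to KLK4 and KLK15, were kept apart for comparison. RNA-seq values of 3 libraries were analysed, 1 for each of 3 lines of CAL27, an established human line of oral squamous cell carcinoma (OSCC). CAL27 is the parental line, labelled WT and grown drug-free. CAL27/5FU, labelled 5-fluorouracil resistant, was kept in 10 μM of the antimetabolite 5-fluorouracil (5FU), and CAL27/OXA, labelled oxaliplatin resistant, was kept in 10 μM of the platinum drug oxaliplatin (OXA). All 3 lines grew in the same high-glucose DMEM with serum. The comparisons ask how the level of each peptidase gene differs between a resistant line and its parent, and between the resistant lines.

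CAL27/5FU was derived from CAL27 by stepwise exposure to 5FU, and the derivation of CAL27/OXA, as well as whether either line is a clone, was not given in the sources used here. The acquired resistance and the presence of the drug in the medium cannot be told apart in this design. With 1 library per line there was no replicate check, so every interval given here is a 95% interval for counting error only and says nothing of the spread between cultures. The libraries held between 37297713 and 43455488 counts. In bulk RNA, fewer cells that express a gene and less RNA per cell cannot be told apart.

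Kallikrein-related peptidases are made as inactive zymogens and are activated by the removal of a short propeptide, in part by each other. In stratified epithelium KLK5, a trypsin-like enzyme, activates itself and other members such as KLK7 and KLK14, and the active enzymes cut the corneodesmosomes that hold the uppermost cells together, so that these cells are shed. Inhibitors such as LEKTI, the product of SPINK5, hold this cascade in check, and members are known to be expressed at altered levels in many carcinomas.

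All 10 genes lie on the minus strand of chromosome 19 (GRCh38, GENCODE 29). KLK5 to KLK14 span 141 kb, from the end of KLK5 at position 50943303 to the start of KLK14 at position 51084245. KLK5 to KLK11, which had between 67 and 1175 counts in CAL27, take up 84.7 kb of this. To show the letters behind the result, the 250 bases before a transcription start are printed for KLK5 and KLK9, which were among the most abundant members in CAL27 and much lower in the resistant lines, and for KLK14, which had like counts in the 3 libraries. The sequences are from RefSeq (GRCh38.p14), read 5′ to 3′ on the minus strand, and capitals mark matches of the GC box GGGCGG on either strand. They cover chr19:50953039-50953288 for KLK5, chr19:51009593-51009842 for KLK9 and chr19:51082857-51083106 for KLK14.
KLK5: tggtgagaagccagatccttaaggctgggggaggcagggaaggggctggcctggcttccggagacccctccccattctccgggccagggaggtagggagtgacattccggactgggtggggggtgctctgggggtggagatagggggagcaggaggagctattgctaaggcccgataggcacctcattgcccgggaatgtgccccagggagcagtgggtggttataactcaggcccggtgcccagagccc
KLK9: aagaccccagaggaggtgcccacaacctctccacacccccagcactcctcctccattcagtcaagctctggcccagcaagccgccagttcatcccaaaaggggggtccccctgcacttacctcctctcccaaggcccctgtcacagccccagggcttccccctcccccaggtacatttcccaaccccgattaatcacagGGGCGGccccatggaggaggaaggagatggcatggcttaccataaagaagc
KLK14: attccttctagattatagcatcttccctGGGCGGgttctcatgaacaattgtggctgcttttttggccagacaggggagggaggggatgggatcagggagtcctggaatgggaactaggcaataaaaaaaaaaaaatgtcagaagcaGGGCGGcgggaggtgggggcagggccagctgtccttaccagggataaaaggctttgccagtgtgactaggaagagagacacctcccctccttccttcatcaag

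Of the 10 genes, 9 had an entry, with 16 promoters among them, and KLK8 had no entry. The GC box was found in a promoter of 6 members (KLK6, KLK7, KLK9, KLK11, KLK13 and KLK14), which was 10 of the 16 member promoters, beside 42.6% of all 35116 promoters of the same length. KLK5, KLK10 and KLK12 had none in these windows. In KLK9 its match began 51 bases before the start, and in KLK14 the matches of the promoter shown began 222 and 103 bases before it. The E-box CACCTG was found in 3 of the 16 member promoters (KLK6, KLK7 and KLK11) and in 17.5% of all promoters. The motif CCAAT was found in 2 of the 16 (KLK7 and KLK13) and in 32.0% of all promoters. No member promoter held the TATA box TATAAA, which was found in 10.7% of all promoters. The AP-1 site TGANTCA, found in 6.57% of all promoters, and the steroid receptor half-site AGAACA, found in 12.4%, were likewise not matched in a member promoter. Each motif was searched on both strands, and matches in KLK13 overlapped each other. Some windows of the same gene overlapped in KLK7, KLK10, KLK13 and KLK14, so some GC boxes were counted in more than 1 promoter. A match or its absence is a description of these letters only. Whether the GC box has a part in the levels of these genes was not tested.

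As a family, the 10 genes summed to 3936 counts in CAL27, against 78 in CAL27/5FU and 674 in CAL27/OXA. In CPM, the counts scaled to library size, these were 101 CPM (97.9 to 104), 1.99 CPM (1.58 to 2.49) and 15.2 CPM (14.0 to 16.4). The summed signal of CAL27/5FU was 1.97% of that of CAL27 (1.56 to 2.47), and that of CAL27/OXA was 15.0% (13.8 to 16.3). For KLK5 to KLK11 CAL27 was highest, CAL27/OXA came between and CAL27/5FU was lowest. For KLK7, at 5 counts in CAL27/OXA and 0 in CAL27/5FU, the counting interval between the resistant lines included equality.

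**Figure D1:**
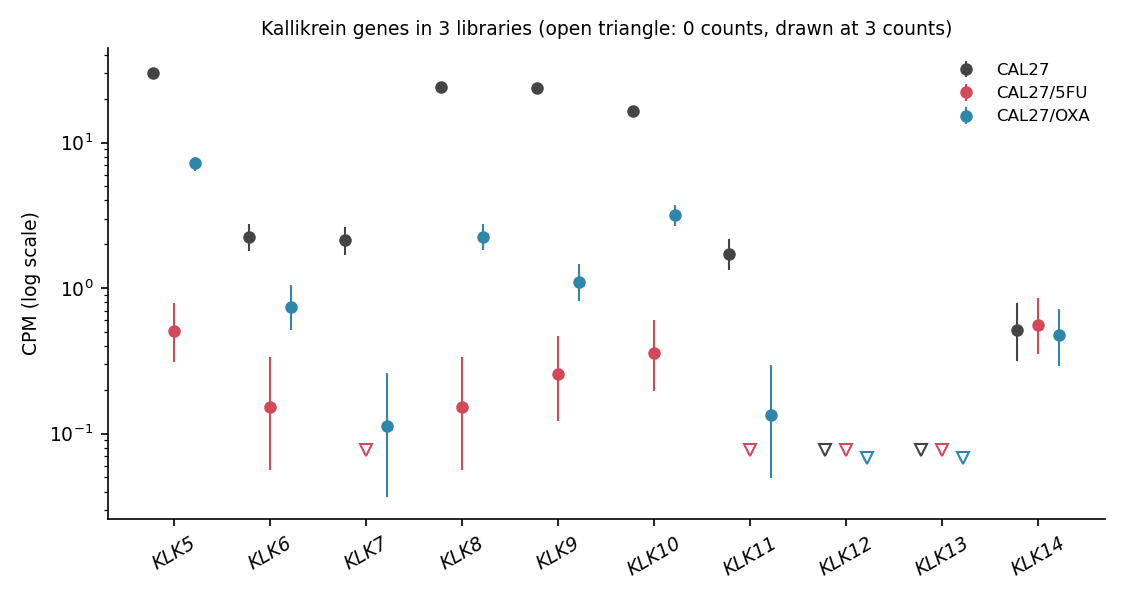
Level of each kallikrein gene in CPM, the counts scaled to library size (log scale), in the CAL27 (grey), CAL27/5FU (red) and CAL27/OXA (blue) libraries, 1 library per line. Bars are exact Poisson 95% intervals and open triangles mark genes with 0 counts, drawn at the level of 3 counts. KLK5 to KLK11 are highest in CAL27, KLK14 lies between 0.473 and 0.562 CPM in all 3 libraries, and KLK12 and KLK13 had 0 counts in each.

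A gene was tested where its mean over the 3 libraries was at least 10 counts, which held for 13676 genes and for 8 of the 10 members. KLK12 and KLK13 did not reach this mean. KLK7 and KLK11 reached it only through CAL27, since their mean over the resistant lines was 2.5 and 3 counts, so that they had to differ in order to be tested. A gene was called lower or higher where its fitted log2 ratio passed 2-fold. In CAL27/5FU against CAL27, 7 members were called lower (KLK5, KLK6, KLK7, KLK8, KLK9, KLK10 and KLK11), where 6.72% of all genes tested were called lower. None was called higher, where 8.46% of all genes tested were. The median log2 ratio of the 8 tested members was -5.41, or -5.07 with KLK7 and KLK11 set to the bound that 3 counts give, and that of all genes tested was 0.00. In CAL27/OXA against CAL27, 7 members were called lower (again KLK5 to KLK11), where the share of all genes was 9.28%, and none was called higher, where it was 6.54%. The median there was -2.81 for the tested members and 0.01 for all genes. These comparisons share the CAL27 library and are therefore not independent, and members of 1 cluster are not replicates of a condition.

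**Figure D2:**
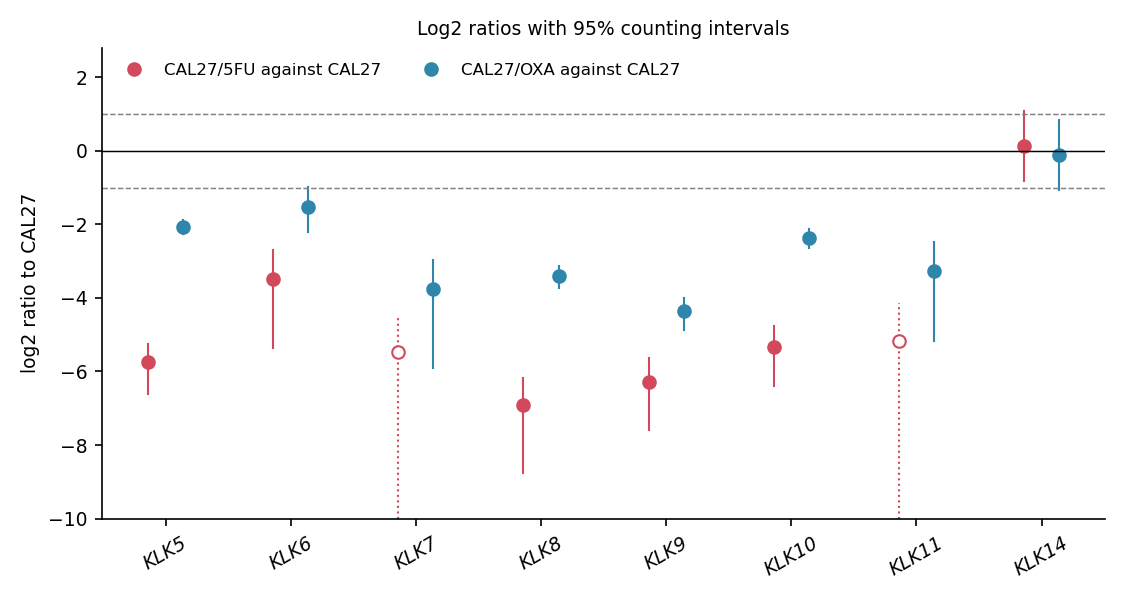
Log2 ratio of the 8 tested kallikrein genes to CAL27 in CAL27/5FU (red) and CAL27/OXA (blue). Bars are exact 95% counting intervals, dashed lines mark 2-fold, and open circles with dotted bars are genes at 0 counts in CAL27/5FU (KLK7 and KLK11), whose fitted value depends on the prior count. All points but those of KLK14 lie below the lower dashed line.

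KLK5, the trypsin-like enzyme at the head of the cascade, had 1175 counts in CAL27, against 20 in CAL27/5FU and 319 in CAL27/OXA. CAL27 was high, CAL27/OXA was intermediate and CAL27/5FU was at few reads. In levels per length, these were 19.4, 0.370 and 5.06 FPKM, the fragments scaled to gene length and library size. KLK5 thus stood at 1.69% of the CAL27 level in CAL27/5FU (1.03 to 2.63), a log2 ratio of -5.75 (-6.60 to -5.25). It stood at 23.8% in CAL27/OXA (21.0 to 27.0), a log2 ratio of -2.06 (-2.25 to -1.89). The intervals of the resistant lines did not overlap.

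KLK7, the chymotrypsin-like enzyme of the cornified layer that KLK5 activates, had 83 counts in CAL27, against 0 in CAL27/5FU and 5 in CAL27/OXA. CAL27 was highest, at only 1.00 FPKM, and the resistant lines had few reads or none. With 0 counts set to a floor of 3 counts, KLK7 was 27.8-fold lower in CAL27/5FU than in CAL27. Its counting interval there ran up to 4.52% of the CAL27 level. In CAL27/OXA it stood at 5.28% of the CAL27 level (1.67 to 12.8), a log2 ratio of -3.75 (-5.90 to -2.96).

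KLK14, a trypsin-like enzyme that also acts in shedding, was the exception. It had 20 counts in CAL27, against 22 in CAL27/5FU and 21 in CAL27/OXA. Levels were alike in all 3, at 0.467, 0.576 and 0.472 FPKM. Its log2 ratio was 0.12 in CAL27/5FU (-0.81 to 1.08) and -0.11 in CAL27/OXA (-1.07 to 0.84), and the latter sign turned with another scaling. No difference was detectable at this depth, and the intervals allow a change of about 2-fold either way.

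KLK8, also called neuropsin and known in brain as well as skin, had the highest FPKM of all members in CAL27 with the gene lengths that the authors used. It had 941 counts in CAL27, against 6 in CAL27/5FU and 100 in CAL27/OXA, or 27.7, 0.198 and 2.83 FPKM. CAL27/5FU kept 0.635% of the CAL27 level (0.232 to 1.39), a log2 ratio of -6.90 (-8.75 to -6.17). CAL27/OXA kept 9.32% (7.51 to 11.5), a log2 ratio of -3.40 (-3.74 to -3.13). In CAL27/5FU against CAL27, KLK8 was the 7th lowest of the 13676 genes tested, by values fitted with a prior count of 2. No other member ranked lower, but the order depends on the prior count. With a prior count of 0.5, KLK7, at 0 counts in CAL27/5FU, was at -7.45 and KLK8 at -7.19.

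KLK9, the neighbour of KLK8, had 920 counts in CAL27, against 10 in CAL27/5FU and 49 in CAL27/OXA, or 15.3, 0.186 and 0.784 FPKM. CAL27 stood far above both resistant lines. The log2 ratio was -6.28 in CAL27/5FU (-7.60 to -5.64) and -4.36 in CAL27/OXA (-4.87 to -4.01), the 13th and the 62nd lowest of all genes tested. KLK9 kept 1.08% (0.517 to 2.0) and 4.67% (3.43 to 6.23) of its CAL27 level. The values of KLK8 and KLK9 cannot be fully separated. The read-through gene AC011473.4, on the same strand, shares 747 exon bases with KLK8, 40.1% of its exons, and 787 with KLK9, 93.7% of its exons. It had no symbol of its own among the counted genes, so how its reads were assigned was not tested.

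KLK10, known as a normal epithelial cell-specific gene that is silenced in some carcinomas, had 643 counts in CAL27, against 14 in CAL27/5FU and 141 in CAL27/OXA. In FPKM these were 5.08, 0.124 and 1.07, again with CAL27 highest and CAL27/OXA between. It kept 2.17% of the CAL27 level in CAL27/5FU (1.18 to 3.66), a log2 ratio of -5.35 (-6.41 to -4.77). It kept 19.2% in CAL27/OXA (15.9 to 23.1), a log2 ratio of -2.36 (-2.65 to -2.11).

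KLK6, a trypsin-like enzyme known from brain and from several carcinomas, had 87 counts in CAL27, against 6 in CAL27/5FU and 33 in CAL27/OXA. In FPKM these were 1.34, 0.103 and 0.488, with CAL27 highest. It stood at 6.86% of the CAL27 level in CAL27/5FU (2.45 to 15.6) and at 33.3% in CAL27/OXA (21.6 to 50.2), with intervals that overlapped those of KLK5. The log2 ratios were -3.50 (-5.35 to -2.68) and -1.53 (-2.21 to -0.99), so that the last interval just reached 2-fold. With FPKM and a pseudocount of 1, KLK6 and KLK7 were within 2-fold in CAL27/OXA, at -0.65 and -0.92.

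KLK11, a trypsin-like member also called hippostasin, had 67 counts in CAL27, against 0 in CAL27/5FU and 6 in CAL27/OXA. As with KLK7, only CAL27 had more than a few reads. At the floor of 3 counts KLK11 was 22.4-fold lower in CAL27/5FU than in CAL27, with a counting interval up to 5.63% of the CAL27 level. It stood at 7.85% of the CAL27 level in CAL27/OXA (2.78 to 18.0), a log2 ratio of -3.26 (-5.17 to -2.47). KLK12 and KLK13, the neighbours between KLK11 and KLK14, had 0 counts in all 3 libraries. For these, 3 counts would be 0.0770 CPM in CAL27, against 0.0766 in CAL27/5FU and 0.0675 in CAL27/OXA, and no ratio is given.

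The counts of some of these genes may hold reads of antisense genes, since the labels give no strand setting for the counting. Exons of antisense genes cover 12.2% of the exon bases of KLK5, 20.3% of those of KLK6, 6.23% of those of KLK10 and 9.05% of those of KLK12. KLK7, KLK11, KLK13 and KLK14 overlap no other exon on either strand.

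The members also differed in how much signal each line kept. In CAL27/OXA, the shares of the CAL27 level kept by KLK5 (21.0 to 27.0) and KLK10 (15.9 to 23.1) lay wholly above that of KLK8 (7.51 to 11.5), which lay wholly above that of KLK9 (3.43 to 6.23). The wide intervals of KLK7 and KLK11 overlapped those of KLK8 and KLK9. In CAL27/5FU, the interval of KLK6 (2.45 to 15.6) lay above that of KLK8 (0.232 to 1.39), and the intervals of KLK5, KLK9 and KLK10 overlapped each other.

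Against CAL27/5FU directly, CAL27/OXA had more signal for most members. The family sum was 7.61-fold higher, 674 counts against 78. By fitted value, 7 members were called higher in CAL27/OXA, where 4.18% of all genes tested were called higher, and none was called lower, where 8.38% were. For KLK7 and KLK11, which had 0 counts in CAL27/5FU, a floor of 3 counts gives 1.47-fold and 1.76-fold higher values, which do not reach 2-fold. Their counting intervals started at 80.7% of the CAL27/5FU level for KLK7, which includes equality, and at 104% for KLK11. KLK5 was 14.1-fold higher, at a log2 ratio of 3.69 (3.16 to 4.54), and KLK8 was 14.7-fold higher, at 3.51 (2.70 to 5.36). KLK10 followed at 2.99 (2.36 to 4.06). KLK6 and KLK9 were less far apart, at 1.97 (1.00 to 3.82) and 1.92 (1.11 to 3.26), and KLK14 was at -0.23 (-1.18 to 0.68). The median log2 ratio was 1.94 for the 8 tested members and 0.01 for all genes tested.

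The order of the levels per length changed with the line. With the authors' lengths, KLK8 led in CAL27 (27.7 FPKM, 26.0 to 29.6), followed by KLK5 (19.4, 18.3 to 20.5), KLK9 (15.3, 14.3 to 16.3) and KLK10 (5.08, 4.70 to 5.49), with intervals that did not overlap. KLK6, KLK11 and KLK7 came next, between 1.00 and 1.34 FPKM with overlapping intervals, and KLK14 was the lowest gene detected. In CAL27/OXA, KLK5 led at 5.06 FPKM (4.52 to 5.65), ahead of KLK8 at 2.83 (2.31 to 3.45) and KLK10 at 1.07 (0.902 to 1.26), and the interval of KLK10 overlapped that of KLK9 (0.784, 0.580 to 1.04). In CAL27/5FU, KLK14 had the highest value, 0.576 FPKM (0.361 to 0.872), although its interval overlapped those of KLK5 (0.370, 0.226 to 0.571) and KLK8 (0.198, 0.0727 to 0.431). FPKM depends on the gene length that the authors used, which their values put at 812 bases for KLK8 and 1438 for KLK9, where the GENCODE 29 exons span 1865 and 840 bases. With GENCODE 29 lengths, a choice made after seeing the data, KLK9 led in CAL27 at 28.1 CPM per kb, ahead of KLK5 at 18.2 and KLK8 at 13.0, so the order of these 3 genes depends on the gene model. KLK5 still led in CAL27/OXA, at 4.34 CPM per kb, and KLK14 had the highest value in CAL27/5FU, at 0.473, with an interval that overlapped that of KLK5.

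The make-up of the family signal also differed between the lines. KLK14 held 0.508% of the family's counts in CAL27 (0.311 to 0.784), 28.2% in CAL27/5FU (18.6 to 39.5) and 3.12% in CAL27/OXA (1.94 to 4.72), although its own count was alike in all 3 libraries. KLK8 held 23.9% in CAL27 (22.6 to 25.3), 7.69% in CAL27/5FU (2.88 to 16.0) and 14.8% in CAL27/OXA (12.2 to 17.7). KLK5 held 29.9% in CAL27 (28.4 to 31.3) and 25.6% in CAL27/5FU (16.4 to 36.8), which overlapped, and 47.3% in CAL27/OXA (43.5 to 51.2), which was above that of CAL27.

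**Figure D3:**
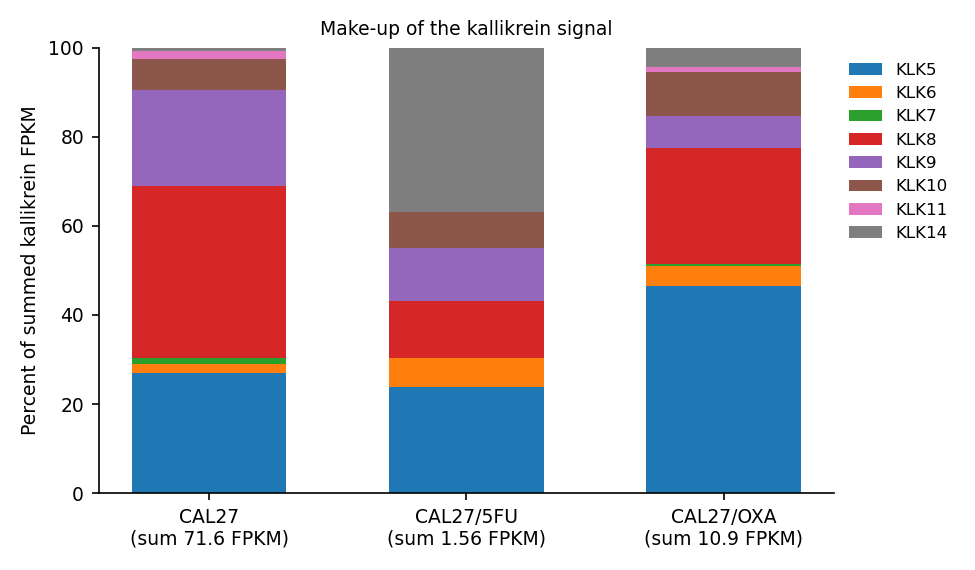
Percent of the summed FPKM of KLK5 to KLK14, with the authors' gene lengths, held by each gene in the 3 libraries. The bars are shares, and the sums they stand for differ (71.6 FPKM in CAL27, against 1.56 in CAL27/5FU and 10.9 in CAL27/OXA). KLK8 and KLK5 fill most of the bar in CAL27, and KLK14 has the largest share in CAL27/5FU (37.0%).

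The other 5 kallikrein genes were hardly detected and none was tested. KLK1, tissue kallikrein, which releases kinins, had 5 counts in CAL27, against 0 in CAL27/5FU and 14 in CAL27/OXA. KLK15 had 2 counts in CAL27/OXA and KLK4 had 1 count in CAL27, with 0 elsewhere, and KLK2 and KLK3, genes best known from prostate, had 0 counts in all 3 libraries.

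The low values were also set beside the tested genes that flank the kallikrein cluster, 5 on each side. The nearest flanking genes, C19orf48 at 14.2 kb before KLK1 and CTU1, which acts in tRNA modification, at 13.4 kb after KLK14, were within 2-fold in both resistant lines. C19orf48 had log2 ratios of 0.00 in CAL27/5FU and 0.56 in CAL27/OXA, and CTU1 had -0.26 and 0.27. KLK14 at the edge of the cluster was likewise within 2-fold, while KLK5 to KLK11 inside it were not.

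Farther out, genes were lower again in CAL27/5FU, where 6.72% of all genes tested were called lower. Among the 5 genes after KLK14, 4 were called lower there (VSIG10L, ETFB, ZNF175 and SPACA6) at 247 to 605 kb from the cluster, and the median of the 5 was -2.60. ETFB, a subunit of a mitochondrial electron carrier, had 2576 counts in CAL27, against 224 in CAL27/5FU and 1489 in CAL27/OXA. ZNF175 had 133, 2 and 125 counts. In CAL27/OXA, 1 of these 5 was called lower (VSIG10L, -1.18), where 9.28% of all genes tested were, and the median was -0.57. Before KLK1, 2 of the 5 genes were called lower in CAL27/5FU, JOSD2 (-3.55) and CLEC11A (-1.01), with a median of -0.97. CLEC11A only just passed 2-fold, on 20 counts in CAL27 and 9 in CAL27/5FU. In CAL27/OXA, 2 were called lower (EMC10, -1.09, and JOSD2, -1.75), with a median of 0.01. SHANK1, with 1, 0 and 35 counts, reached the filter through CAL27/OXA alone, where it was high.

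**Figure D4:**
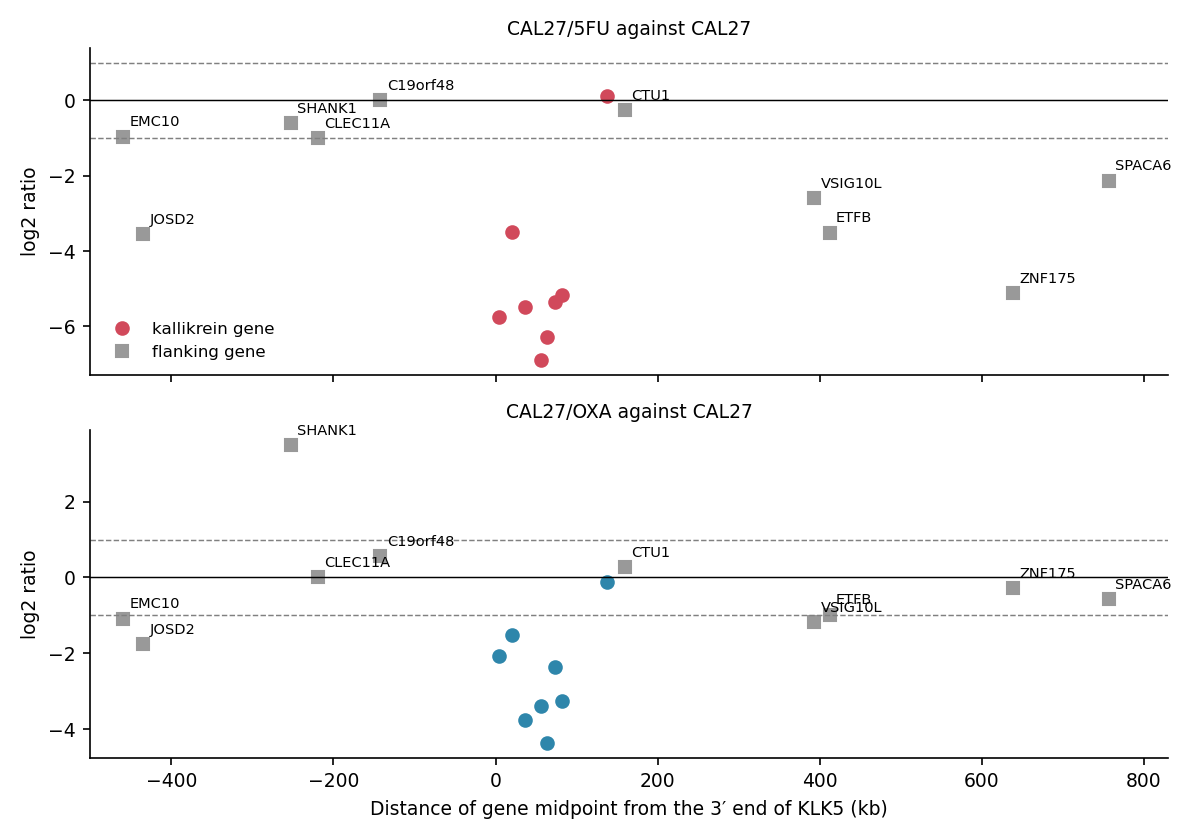
Log2 ratio to CAL27 against the distance of the gene midpoint from the 3′ end of KLK5 (kb), for CAL27/5FU (top) and CAL27/OXA (bottom). Circles are tested kallikrein genes, squares are the 5 nearest tested genes on each side, dashed lines mark 2-fold, and genes at or near 0 counts (KLK7, KLK11, SHANK1 and ZNF175 in CAL27/5FU) are drawn at their fitted value. C19orf48, CTU1 and KLK14 lie within the dashed lines in both panels, and VSIG10L, ETFB, ZNF175 and SPACA6 lie below them in the top panel.

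The genes whose pattern over the 3 libraries was most like that of KLK8 were sought among the 11541 genes whose mean over the libraries reached 100 counts, by the distance between their pairs of log2 ratios. The nearest were SPRR1B, a cornified envelope protein, at 0.84, MYH14, a non-muscle myosin heavy chain, at 0.88, and KRT14, the keratin of basal cells, at 1.05. SPRR1B had 331 counts in CAL27, against 1 in CAL27/5FU and 18 in CAL27/OXA, and MYH14 had 916, 12 and 112. Both genes reached the mean of 100 counts only through CAL27, where they were high. This likeness rests on 3 libraries and on a fitted value for a gene at 1 count.

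Genes of the pathway around the kallikreins were set beside the shares of all genes tested. These shares were 6.72% called lower and 8.46% called higher in CAL27/5FU, and 9.28% and 6.54% in CAL27/OXA. The proteases that can activate kallikreins and their inhibitors were ST14, PRSS3, PRSS8, SPINT1 and SPINT2. Of these, 0 of 5 tested genes were called in either direction in either resistant line, which is near these shares. Their median log2 ratios were -0.29 and -0.51. Of the 12 inhibitor genes 8 were tested, A2ML1 through CAL27 alone (271, 12 and 5 counts). In CAL27/5FU, 2 were called lower, A2ML1 (-4.30) and PI3, the elastase inhibitor elafin (-3.17), and SERPINA1, alpha-1-antitrypsin, was called higher (1.85, 554 counts in CAL27 and 2008 in CAL27/5FU). The median was 0.00. In CAL27/OXA, 5 were called lower, A2ML1 (-5.44), PI3 (-5.20), SERPINA3 (-3.95), SERPINA5 (-3.33) and SLPI (-1.95), and the median was -2.64. SPINK5, which encodes LEKTI, was within 2-fold in both, with 245 counts in CAL27, against 127 in CAL27/5FU and 218 in CAL27/OXA. In CAL27/5FU the inhibitors as a list thus had a median near that of all genes, beside kallikrein values far below it.

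Of the 13 genes for proteins that kallikreins are known to cut, 9 were tested. In CAL27/5FU, 1 of the 9 was called lower, near the 6.72% of all genes tested. It was IGFBP3, a carrier of insulin-like growth factors (-2.39), and the median was -0.36. In CAL27/OXA, 4 were called lower, where 9.28% of all genes tested were. They were IGFBP3 (-3.87), the adhesion protein gene L1CAM (-3.03), FLG, filaggrin (-2.79), and CDSN, corneodesmosin (-1.25), and the median was -0.24. The corneodesmosomal cadherin genes DSG1 and DSC1 were hardly detected, with 0, 4 and 0 counts and 5, 3 and 2 counts.

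Genes of the upper layers of stratified epithelium, where the kallikreins act, were low as well. Of 14 such genes 10 were tested. Of these, 6 reached the filter through CAL27 alone, so that they had to differ in order to be tested. The others were KRT13, CNFN, TGM1 and KRT10. In CAL27/5FU, 9 were called lower, where 6.72% of all genes tested were, and none higher, where 8.46% were. The median was -4.63, or -3.93 with genes at 0 counts set to their bound. In CAL27/OXA, 9 were called lower, where 9.28% of all genes tested were, and none higher, where 6.54% were. The median was -3.34, or -3.19 in that way. Both medians include the 6 genes that CAL27 alone carried past the filter. IVL, involucrin, had 74 counts in CAL27, against 0 in CAL27/5FU and 15 in CAL27/OXA, and KRT13, a keratin of the oral lining, had 498, 7 and 13. TGM1, the transglutaminase that crosslinks the envelope, was less low, with log2 ratios of -2.36 and -2.28, and CNFN had -2.38 and -2.02. KRT10 was within 2-fold in both lines, with 509, 509 and 658 counts. Most of these genes had few reads even in CAL27, where the list summed to 47.8 FPKM, beside 71.6 FPKM for the kallikreins.

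**Figure D5:**
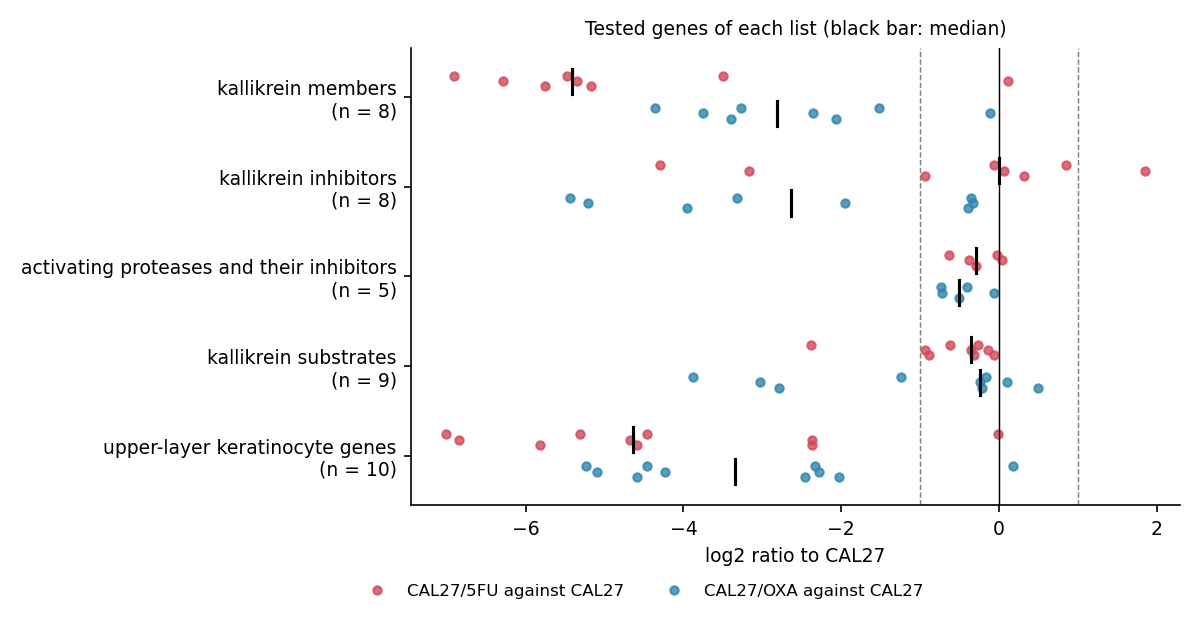
Log2 ratio to CAL27 of the tested genes of each list in CAL27/5FU (red) and CAL27/OXA (blue), with the number of tested genes. Each point is a gene, black bars are medians and dashed lines mark 2-fold. The kallikrein and upper-layer lists have medians below -2.5 in both lines. The activating proteases lie within 2-fold, and the inhibitors have medians of 0.00 in CAL27/5FU and -2.64 in CAL27/OXA. Of the tested genes, 2 kallikreins, 1 inhibitor and 6 upper-layer genes reached the filter through CAL27 alone.

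Squamous identity of the lines was checked with 7 markers, all of which were above 3 counts in every library. They summed to 13325 CPM in CAL27, against 3110 in CAL27/5FU and 3968 in CAL27/OXA. Of the 7, 5 were called lower in CAL27/5FU and 4 in CAL27/OXA, where 6.72% and 9.28% of all genes tested were. Among them were KRT5 (-2.64 and -2.17) and KRT14 (-5.94 and -2.98). KRT17 (-1.96 and -2.22) and DSP (-1.17 and -1.18) were the other markers called lower in each line. TP63, a transcription factor of squamous identity, had 23645, 9759 and 29498 counts, a log2 ratio of -1.28 in CAL27/5FU and 0.13 in CAL27/OXA. CDH1 and EPCAM were within 2-fold in both. The part of these markers in the kallikrein result was not tested. Markers of other cell types were mixed. COL3A1 of fibroblasts had 0 counts in all 3 libraries, while COL1A1 had 1387, 1068 and 1050 and PDGFRB had 35, 55 and 76. PTPRC of leukocytes had 2, 0 and 0 counts. The 7 fibroblast markers summed to between 41.9 and 50.1 CPM, with COL1A2 and LUM called higher in each resistant line. The 5 leukocyte markers summed to between 47.0 and 114 CPM, almost all of it CD68. The 4 endothelial markers summed to between 2.57 and 9.35 CPM, with CDH5 called higher in each resistant line (43, 338 and 163 counts) and VWF called lower in CAL27/5FU (-1.14).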

How the data were processed

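Total RNA was sequenced by Novogene on an Illumina NovaSeq instrument for the authors. The submitters' processing notes name CASAVA 1.8, HISAT2 2.0.5 and the build GRCh38, while the counting tool, the annotation and the strand setting are not given in the sources used here. The authors deposited raw read counts per gene symbol without normalization, and the authors deposited FPKM values, scaled by length and total counts. Each of these 2 tables also holds 3 further columns of per-sample values, whose names read as other samples of these lines. No label given here names them, and they were left out, so 1 library per line was analysed, although replicates may stand in the tables. Column names were matched to sample titles.

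TMM factors from edgeR 4.0.16 (R 4.3.3) over the 3 libraries scaled the counts, which were turned into log2 CPM with a prior count of 2. They held 41786182 (CAL27), 37297713 (CAL27/5FU) and 43455488 (CAL27/OXA) counts, where 1 count was 0.0257, 0.0255 and 0.0225 CPM. Genes whose mean reached 10 counts were tested against a threshold of 2-fold. With 1 library per line no replicate test and no p-value was made, and no label says that the libraries are separate cultures. Exact 95% Clopper-Pearson intervals on each pair of counts, exact Poisson intervals on levels and a floor of 3 counts cover counting error only. The code was tested on simulated data. Python 3.11.15, pandas 2.3.3, scipy 1.17.1, numpy 2.4.6 and matplotlib 3.10.9 were used, and gene positions came from GENCODE 29.

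The members and lists were chosen with earlier results of these data known, and the promoter motifs were chosen after the values were seen. All 10 members were named. Genes of the lists that passed 2-fold in either comparison could be named, and not all were. Also named were the 5 tested genes on each side of the cluster and the 3 genes most like the member with the highest FPKM in CAL27. Outside this rule, some genes were named after their values were seen. These were genes with few or 0 counts, CD68 and the hormone receptors of the closing section. So were those within 2-fold (SPINK5, KRT10, CDH1, EPCAM, COL1A1, PDGFRB and the activating proteases). The alternatives were a scaling by size factors of DESeq2 1.42.0, by the upper quartile or by total counts, a filter at a mean of 50 counts or none beyond 1 count, a prior count of 0.5 or 5, FPKM with pseudocounts of 1 and 0.1, a threshold of 4-fold, and calls only where the whole 95% interval passed 2-fold. A further gene of the receptor list is not reported here.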

Additional observations from a re-analysis of the deposited data

Results flagged for a closer look

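The screen took in the tested genes of 4 lists: 8 kallikreins, 8 inhibitors, 5 activating proteases and their inhibitors, and 9 substrates. For 4 of these genes, the ratio to CAL27 had opposite signs in CAL27/5FU and CAL27/OXA. Their counting intervals did not include equality, and at least 1 of the ratios passed 1.5-fold. The share of all genes tested that meet this rule was not computed, and at high counts such intervals are narrow. With 1 library per line the difference was not tested, and both ratios share the CAL27 library. The serine protease inhibitor gene SERPINA1 had 554 counts in CAL27, against 2008 in CAL27/5FU and 504 in CAL27/OXA. Its log2 ratio was 1.85 in CAL27/5FU and only -0.32 in CAL27/OXA, and the latter minus the former was -2.17. SERPINA3, alpha-1-antichymotrypsin, had 2589, 3252 and 189 counts and log2 ratios of 0.32 and -3.95, a difference of -4.27. SERPINA5, the protein C inhibitor, had 325, 590 and 35 counts and log2 ratios of 0.85 and -3.33, a difference of -4.18. NRG1, neuregulin 1, a growth factor made as a membrane-bound precursor, had 1471, 773 and 2353 counts. Its log2 ratios were -0.93 and 0.49, a difference of 1.42.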

How the results depend on the processing

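No value changed direction among the called members under any alternative listed for them. Under a mean of at least 50 counts, 4 members were called lower in CAL27/5FU and 4 in CAL27/OXA, and 4 were called higher in CAL27/OXA against CAL27/5FU, because fewer members were tested. Of all 12206 genes at that filter, 655 were called lower in CAL27/5FU, 951 lower in CAL27/OXA and 369 higher in CAL27/OXA against CAL27/5FU. With FPKM and a pseudocount of 1, the median log2 ratio of the tested members was -1.82 in CAL27/5FU, -1.30 in CAL27/OXA and 0.51 in CAL27/OXA against CAL27/5FU, where 2 members were called higher. A pseudocount of 0.1 gave a median of -4.17 in CAL27/5FU. A pseudocount shrinks the ratios of genes at low FPKM by its construction. A threshold of 4-fold left 3 members higher in CAL27/OXA against CAL27/5FU. Where the whole 95% interval had to pass 2-fold, 7 members were lower in CAL27/5FU, 6 were lower in CAL27/OXA, where KLK6 was lost, and 5 were higher in CAL27/OXA against CAL27/5FU, where KLK7 and KLK11 were lost. No share of all genes was computed for the 4-fold or the whole-interval calls. Of the single members' values under all alternatives, 56 stayed within the counting interval and 12 moved outside it in CAL27/5FU, 60 and 8 in CAL27/OXA, and 63 and 5 in CAL27/OXA against CAL27/5FU. For KLK14 in CAL27/OXA the log2 ratio ranged from -0.12 to 0.01.

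Over all genes, scaling by total counts moved the median log2 ratio to 0.17 in CAL27/5FU and 0.14 in CAL27/OXA, with 699 genes lower and 1432 higher in CAL27/5FU (919 and 1157 with TMM) and 1052 and 1100 in CAL27/OXA (1269 and 894 with TMM). Without the filter 1555 and 1899 genes were called in CAL27/5FU, 1925 and 1348 in CAL27/OXA, and 1861 and 981 in CAL27/OXA against CAL27/5FU (1146 and 571 with it). With FPKM and a pseudocount of 1 these were 311 and 503, 481 and 368, and 437 and 165.

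A check that drops single replicates was not possible, since 1 library per line was analysed and the unlabelled columns were not used. No paired analysis was possible because the lines share a single replicate number. Counts of 0 to 6 limit KLK6, KLK7, KLK8 and KLK11 in CAL27/5FU and KLK7 and KLK11 in CAL27/OXA.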

Other observations

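Receptors for steroid hormones and vitamin D, which are known to regulate kallikrein genes in several tissues, were measured in the same libraries, and 5 are described here. PGR, the progesterone receptor, had 0 counts in CAL27, against 307 in CAL27/5FU and 204 in CAL27/OXA. It was the 1 receptor of 5 tested that was called higher in each resistant line, where 8.46% and 6.54% of all genes tested were. NR3C1, the glucocorticoid receptor, had 2930, 2490 and 3412 counts, and VDR, the vitamin D receptor, had 2877, 2683 and 3056, all within 2-fold. ESR1 (90, 65 and 86 counts) and ESR2 (70, 47 and 75 counts) were also within 2-fold. The median log2 ratio of the tested receptors was -0.24 in CAL27/5FU and -0.09 in CAL27/OXA.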
